A study of Macaca mulatta with 4 samples.

Results

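The ionotropic glutamate receptors of the AMPA and kainate types are built from 9 subunit genes, and the transcripts of all 9 were examined in single nuclei of the fetal rhesus macaque cerebellum. GRIA1 to GRIA4 (the AMPA subunits) and GRIK1 to GRIK5 (the kainate subunits) were taken by gene symbol as 9 of 30807 genes in the count tables, by a rule that uses the symbols alone. The Control group held 1 female and 1 male fetus of 130 days of gestation without intervention. The LPS group held 1 male fetus of 133 days and 1 female fetus of 131 days, each given 1 mg of lipopolysaccharide (LPS, a bacterial cell wall product used to model chorioamnionitis) by intra-amniotic injection 5 days before delivery. Each fetus gave 1 library of nuclei from flash-frozen cerebellum, with 10x Genomics 3′ chemistry, so that there were 2 libraries per group. The LPS fetuses were also older at delivery than the Control fetuses, and the agent, the injection itself and these days cannot be told apart.

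AMPA receptors carry most of the fast excitatory transmission in the brain. They are tetramers of the 4 GRIA products, and a receptor that holds the edited GRIA2 subunit passes little calcium, whereas receptors without GRIA2 pass calcium. Bergmann glia, the radial glia that wrap the synapses of Purkinje cells, are known for receptors without GRIA2. Kainate receptors are tetramers in which GRIK1, GRIK2 and GRIK3 can form channels alone, whereas GRIK4 and GRIK5 are high-affinity subunits that need one of the first group. In the mature cerebellum, granule cells (the small excitatory neurons of the inner layer) are known to use GRIK2 and GRIK5. Oligodendrocyte precursors also carry functional AMPA and kainate receptors, and receive synapses from axons.

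A barcode was taken as a nucleus if 500 or more genes were seen in it and no more than 5% of its unique molecular identifiers (UMIs, which count captured RNA molecules) were mitochondrial. There were 32565 such nuclei, 6890 to 9250 per library, with 1882 to 4508 UMIs at the median. The female libraries were the deeper ones, with median UMIs of 4508 (Control) and 4063 (LPS) against 1882 (Control) and 2308 (LPS) in the males. The mean mitochondrial share was 0.264% and 0.212% in the female libraries and 0.0214% and 0.0318% in the male ones. In LPS male only 38.7% of all UMIs lay in nuclei, against 58.7 to 73.9% elsewhere, and 1893 of the 2434 nuclei of an unnamed cluster with few UMIs and ribosomal leading genes came from this library. Between 16 and 21 barcodes were shared by any pair of libraries. Nuclei were clustered without the 9 genes, and 89.8% of nuclei took a class name from marker genes. In classes with a marker list of their own, every marker was higher than in the mean of the other classes, except that 12 of 13 were in the granule lineage and 7 of 8 in Bergmann glia. In what follows, a level is the count of a gene in a class and library, scaled so that all genes of that class and library sum to a common total (CPM). A run of 4 values is in the order Control female, Control male, LPS male, LPS female. Intronic reads were counted and gene lengths of this build were not used here, so levels are compared between classes for 1 gene and not between genes. As the clusters were made from the same nuclei, differences between classes are given without a test. The level of each gene in free RNA, read from barcodes too poor in UMIs to be nuclei, is given where it bears on a low value. Free RNA was estimated as only a part of the UMIs of a class, so a level below that of free RNA does not show that a gene was absent from the nuclei.

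The 9 genes together held 900958 UMIs, or 0.760% of the UMIs of all nuclei. By library the share was 0.877, 0.524, 0.563 and 0.884%, so that both female libraries lay above both male ones.

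GRIA2, the subunit that sets calcium permeability (identifier ENSMMUG00000018272 in the files), was highest in unipolar brush cells, which are excitatory interneurons of the granular layer. Its levels there were 3291, 3549, 3093 and 3020 CPM, on 75 nuclei in all and only 8 in Control male and 9 in LPS female. In every library this was 4.16 to 5.03 times the level in the granule lineage, where the values were 654, 788, 744 and 689.6 CPM. Premyelinating oligodendrocytes followed with 2062, 1511, 1650 and 1837 CPM, then oligodendrocyte precursors with a mean of 1379 ± 166 CPM (SD, n = 4) and Purkinje cells, the output neurons of the cortex, with 1213 ± 236 CPM (SD, n = 4). The ranges of these last 3 classes overlapped with their neighbours in the order, whereas unipolar brush cells lay above all of them in each library.

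Among neurons, astroglia and the oligodendrocyte lineage, the astroglia were at the other end. Fibroblasts (117 CPM), endothelial cells (86.0 CPM) and choroid or ependymal cells (37.3 CPM) had lower means still. Bergmann glia had 112, 169, 221 and 87.5 CPM of GRIA2 and astrocytes 107, 248, 256 and 113 CPM. In free RNA the gene had 354, 652, 690.1 and 196 CPM, which is above the level of Bergmann glia, astrocytes and proliferating glia in 4 of 4 libraries. With the estimated share of free RNA subtracted, 83.5, 93.5, 61.6 and 79.7 CPM remained in Bergmann glia and 76.5, 163, 119 and 102 CPM in astrocytes. Before subtraction, the granule lineage had 3.36 to 7.88 times the level of Bergmann glia.

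The share of GRIA2 among the UMIs of the 4 AMPA subunits was also highest in unipolar brush cells, and it was lowest in Bergmann glia. Its order was not that of the level throughout. PAX2+ interneurons and mature granule cells had mean levels of 608 and 570.4 CPM, but mean shares of 13.7 and 29.0%. Since 3′ counts with introns are not corrected for length, this share is an index for comparing classes and not the makeup of the receptors. It was 90.2, 88.3, 79.3 and 93.4% in unipolar brush cells. The exact (Clopper-Pearson) 95% interval in LPS male, 76.2 to 82.2%, ended below the intervals of both female libraries, which began at 87.7% (Control) and 88.8% (LPS). Free RNA was estimated at 11.4% of the UMIs of this class in LPS male, and with it subtracted the share in LPS male was 87.0%. The estimate was 0 elsewhere, in libraries whose granule lineage nuclei had 6.84 to 12.7%. On so few nuclei an estimate of 0 does not show that free RNA was absent, and the subtraction changed LPS male only. Purkinje cells had 43.3, 46.2, 51.9 and 40.6%, and premyelinating oligodendrocytes 40.0% ± 6.40 (SD, n = 4). The granule lineage had 20.6, 33.5, 29.4 and 21.3%, with both male libraries above both female ones. Inhibitory interneurons were lower, with 13.7% ± 4.57 in the immature PAX2+ interneurons, 10.3% ± 3.35 in molecular layer interneurons and 10.1% ± 4.04 in Golgi cells (SD, n = 4 each). In astrocytes the mean was 5.94% ± 3.87 (SD, n = 4), with 9.62% (Control) and 8.95% (LPS) in the male libraries and lower values in both female ones. With free RNA subtracted astrocytes had 1.78, 6.85, 4.65 and 2.21%, still higher in both male libraries. The male libraries are the shallower ones, and the part of depth in this was not tested. In Bergmann glia the mean was 1.51% ± 0.975 (SD, n = 4). Intervals and floors of this kind cover counting error only. Bergmann glia stood at 0.759, 2.25, 2.46 and 0.590%, and the mean was 0.686% after subtraction of free RNA and 0.717% after removal of called doublets, which made up 14.2% of this class.

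**Figure D1:**
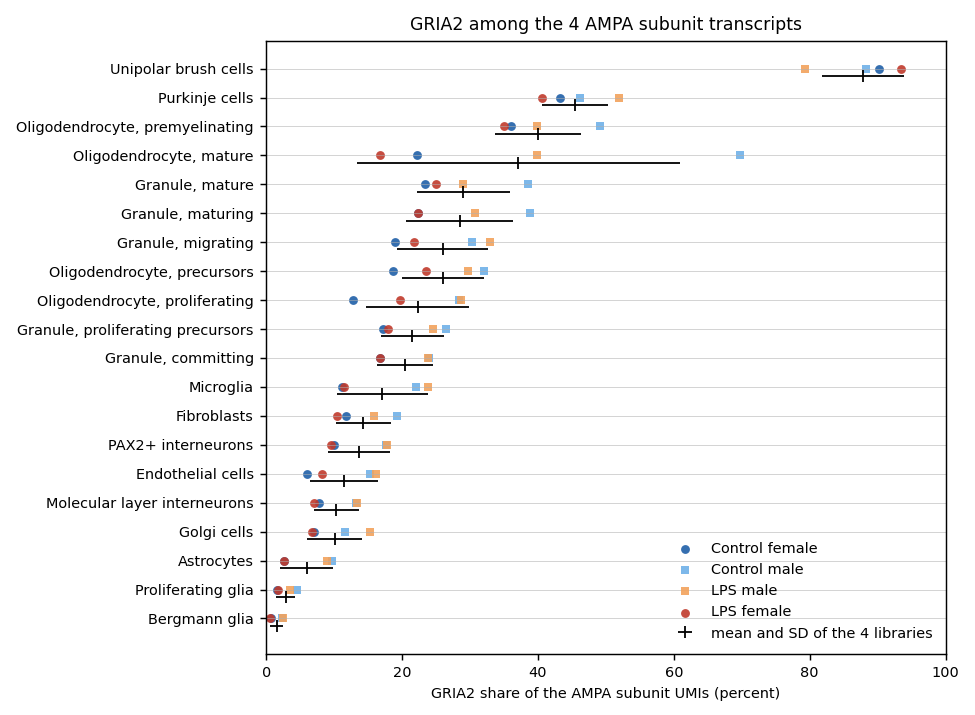
Share of GRIA2 among the UMIs of GRIA1 to GRIA4 (x axis, percent) in each class (y axis, ordered by the mean), with 1 point per library and the mean with its SD below the points. Unipolar brush cells lie between 79.3 and 93.4% and Bergmann glia between 0.590 and 2.46%; mature oligodendrocytes have the widest spread, 16.8 to 69.7%.

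GRIA1 (ENSMMUG00000009287), the subunit best known for its traffic into synapses during plasticity, was highest among the named classes in astroglia and Purkinje cells. Bergmann glia had 2103, 2021, 2198 and 2380 CPM, with a SD of 154 over the 4 libraries. This was 4.26 to 5.12 times the level of astrocytes and 2.66 to 3.65 times that of Purkinje cells within the same library. The order continued with proliferating glia (1133 ± 210.0 CPM), Purkinje cells (709.6 ± 80.9 CPM), astrocytes (472 ± 59.1 CPM) and oligodendrocyte precursors (270.0 ± 35.0 CPM; SD, n = 4 each). From Bergmann glia down to oligodendrocyte precursors, the range over the 4 libraries of each class lay above that of the next. Golgi cells, the inhibitory neurons of the granular layer, had 189, 188, 142 and 186 CPM. An unnamed cluster led by NXPH1 and TAFA1, taken up again under GRIA3, was higher. With free RNA subtracted it had 396, 339, 349 and 344 CPM, against 325, 271, 233 and 254 CPM in oligodendrocyte precursors.

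In the granule lineage GRIA1 had 11.1, 33.6, 29.9 and 11.9 CPM against 121, 311, 196 and 139 CPM in free RNA, and with free RNA subtracted its mean was 0.755 CPM. Molecular layer and PAX2+ interneurons were also below the level of free RNA in each library, but kept 81.8 and 36.7 CPM of their means of 86.8 and 53.9 CPM after subtraction.

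GRIA4 (ENSMMUG00000010987), a subunit of early development and of cerebellar neurons and glia, also led in Bergmann glia, where its levels were 12112, 4796, 6218 and 11696 CPM. Astrocytes had 3052, 1546, 1891 and 3031 CPM, so that the fold between the 2 types of astroglia was narrow across libraries, from 3.10 to 3.97. Proliferating glia had 5249, 2469, 3621 and 4853 CPM. PAX2+ interneurons (3273 ± 870.2 CPM), oligodendrocyte precursors (3145 ± 1013 CPM) and molecular layer interneurons (2999 ± 1052 CPM; SD, n = 4 each) came next, with overlapping ranges. The granule lineage had 2469, 1466, 1700 and 2484 CPM. The low classes among neurons were Purkinje cells, with 56.9, 209.7, 432 and 162 CPM, and unipolar brush cells, with 314, 385, 655 and 194 CPM. Both lay below free RNA, which had 1643, 2311, 2728 and 1050 CPM of GRIA4. The granule lineage, astrocytes, Golgi cells and molecular layer interneurons were above free RNA in the female libraries and below it in the male ones, while Bergmann glia were above it in all 4.

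GRIA3 (ENSMMUG00000009054) was a transcript of inhibitory interneurons. Molecular layer interneurons, the basket and stellate cells, had 1467, 1095, 1357 and 1654 CPM. An unnamed cluster of 218 nuclei, led by NXPH1 and TAFA1, matched the same marker list best and is not in this class. With free RNA subtracted it had 678, 619, 404 and 684 CPM of GRIA3, against 1554, 1100, 1457 and 1659 CPM in the named class. Its mean shares of AMPA UMIs were 10.0% for GRIA1 and 20.4% for GRIA2, against 1.74 and 10.3% in the named class. Golgi cells had 1037, 789, 767 and 1001 CPM, below molecular layer interneurons in each library, and PAX2+ interneurons had 879, 642, 567 and 832 CPM. Molecular layer interneurons exceeded PAX2+ interneurons 1.67 to 2.39 times and the granule lineage 17.2 to 41.4 times. Oligodendrocyte precursors had 669 ± 80.7 CPM, Purkinje cells 509 ± 95.5 CPM, Bergmann glia 505 ± 119.6 CPM and astrocytes 435 ± 160.1 CPM (SD, n = 4 each), and the ranges of Purkinje cells and Bergmann glia overlapped. In the granule lineage its levels of 35.4, 63.8, 56.7 and 51.9 CPM were below free RNA in 4 of 4 libraries.

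**Figure D2:**
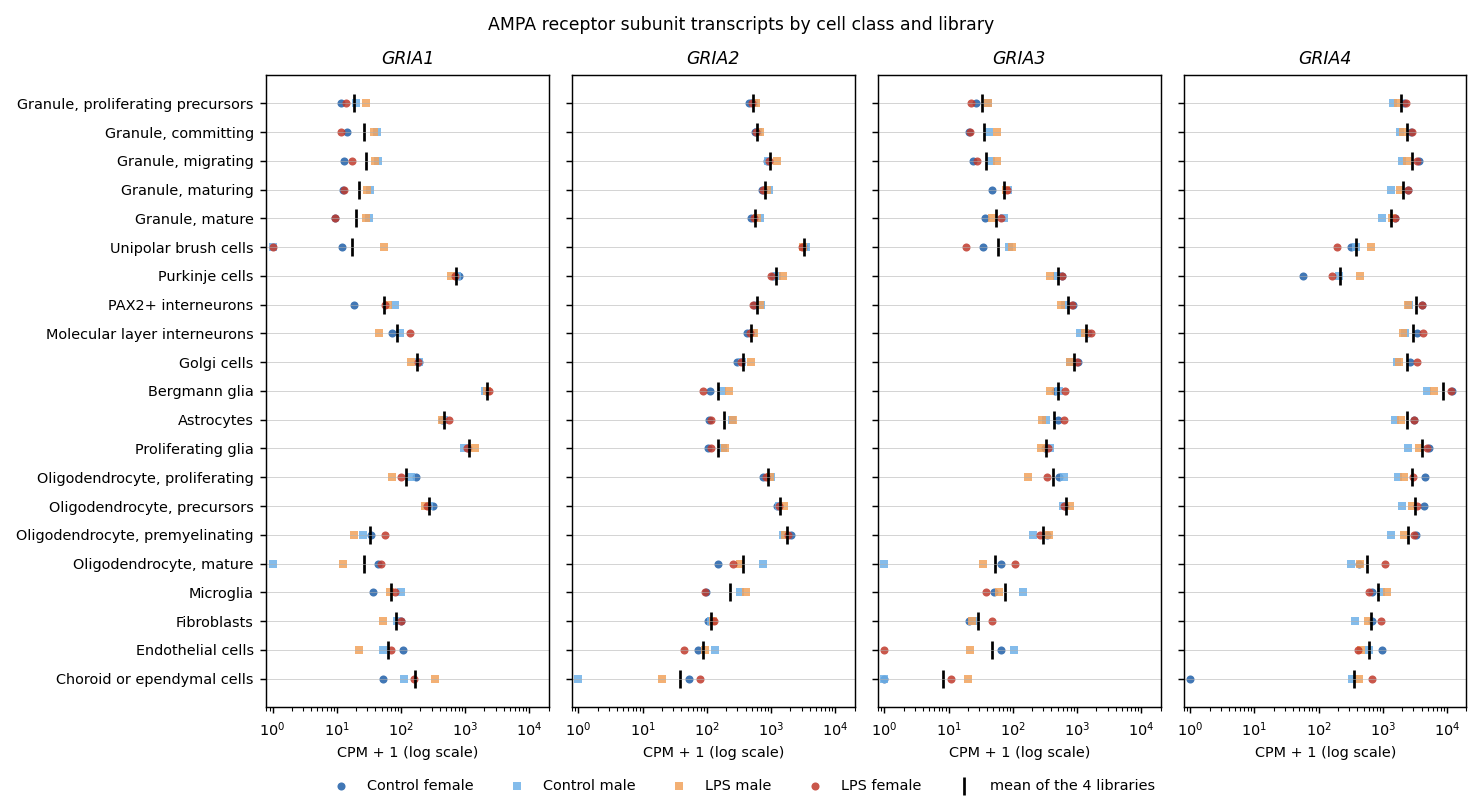
Levels of the 4 AMPA subunit transcripts (x axis, CPM + 1 on a log scale) in 21 classes (y axis), with 1 point per library and a bar at the mean of the 4 libraries. GRIA1 and GRIA4 have their highest means in Bergmann glia (2176 and 8705 CPM), GRIA2 in unipolar brush cells (3238 CPM) and GRIA3 in molecular layer interneurons (1393 CPM).

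GRIK2 (ENSMMUG00000009856), the main channel-forming kainate subunit of granule cells, held 412513 UMIs over all nuclei. Its 3 highest classes were later stages of the granule lineage, at 6698, 3340, 3512 and 6789 CPM in migrating, 6674, 3227, 3121 and 7325 CPM in maturing and 5108, 2617, 2573 and 5516 CPM in mature granule cells. Migrating and maturing granule cells had overlapping values with no fixed order between libraries. PAX2+ interneurons followed at 2112 ± 373 CPM and oligodendrocyte precursors at 1923 ± 412 CPM (SD, n = 4 each), but both were above free RNA in only 1 of 4 libraries. Migrating granule cells were above it in 4 of 4. Within the inhibitory neurons, PAX2+ interneurons had 3.66 to 6.68 times the level of molecular layer interneurons, whose 346, 386, 507 and 387 CPM were below free RNA. Purkinje cells were low too, with 237, 171, 643 and 219 CPM against 2964, 2607, 3425 and 1568 CPM in free RNA.

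GRIK1 (ENSMMUG00000004886), another channel-forming kainate subunit, was a Purkinje cell transcript. The 4 libraries had 6861, 2888, 3518 and 5876 CPM in Purkinje cells, on 118 nuclei in all. Astrocytes came second at 676, 451, 162 and 831 CPM, which Purkinje cells exceeded 6.41 to 21.7 times within a library. Oligodendrocyte precursors had 518, 396, 319 and 435 CPM. Astrocytes had more than Bergmann glia in 4 of 4 libraries, by 1.20 to 3.17 times, the reverse of GRIA1 and GRIA4.

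For GRIK1, LPS male had the lowest level of the 4 libraries in 11 of 17 classes, among them 4 of the 5 granule stages, Bergmann glia (213, 374, 79.2 and 419.5 CPM) and astrocytes. The granule lineage as a whole had 265, 175, 79.4 and 270.1 CPM. Such counts were found for other members too, since Control male was lowest in 12 of 17 classes for GRIA4 and for GRIK2, and Control female in 12 of 17 for GRIK5. In free RNA GRIK1 had 149, 400.2, 138 and 103 CPM, so that LPS female was lower still there. The part of depth and of the low share of UMIs in nuclei of LPS male in this result was not tested.

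GRIK3 (ENSMMUG00000009679), a kainate subunit of low glutamate sensitivity, was again a gene of inhibitory interneurons. Golgi cells had 130.4, 208, 348 and 142 CPM, molecular layer interneurons 114, 224, 249 and 124 CPM and PAX2+ interneurons 77.7, 83.0, 120.2 and 75.0 CPM. The Golgi and molecular layer ranges overlapped. The Golgi level was 24.4 to 39.4 times that of the granule lineage, where the mean was 6.60 ± 3.46 CPM (SD, n = 4). In Purkinje cells 1 UMI was found in the 4 libraries together. In the oligodendrocyte lineage the precursors had 57.4 ± 23.5 CPM and the premyelinating stage 51.4 ± 22.4 CPM (SD, n = 4 each).

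GRIK4 (ENSMMUG00000022347), a high-affinity subunit, had its highest means in Purkinje cells and in the oligodendrocyte lineage. Purkinje cells had 262, 209.7, 489 and 229.7 CPM and premyelinating oligodendrocytes 255, 318, 375 and 223 CPM, and their ranges overlapped. Oligodendrocyte precursors had 184, 145, 212 and 272 CPM, which was 14.1 to 70.7 times the level of the granule lineage. Astrocytes were lower, at 51.7, 53.0, 75.6 and 67.4 CPM, and exceeded Bergmann glia 3.75 to 21.9 times.

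GRIK5 (ENSMMUG00000017431), the other high-affinity subunit, had its highest means in proliferating oligodendrocyte cells (158 ± 82.2 CPM) and oligodendrocyte precursors (144 ± 52.7 CPM; SD, n = 4 each). The proliferating cells were only 37 nuclei, 8 to 11 per library, and lay above the precursors in 2 of 4 libraries. In neurons and astroglia it was spread evenly. Its mean lay between 83.9 CPM in Purkinje cells and 135 CPM in maturing granule cells over the granule stages and the other neurons, and at 117 ± 35.6 CPM in Bergmann glia and 109.8 ± 35.8 CPM in astrocytes (SD, n = 4 each). Endothelial cells were lower, with 13.5, 37.3, 20.9 and 9.96 CPM, which is below free RNA in 4 of 4 libraries. Neighbours in its order overlapped throughout the 6 highest classes.

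**Figure D3:**
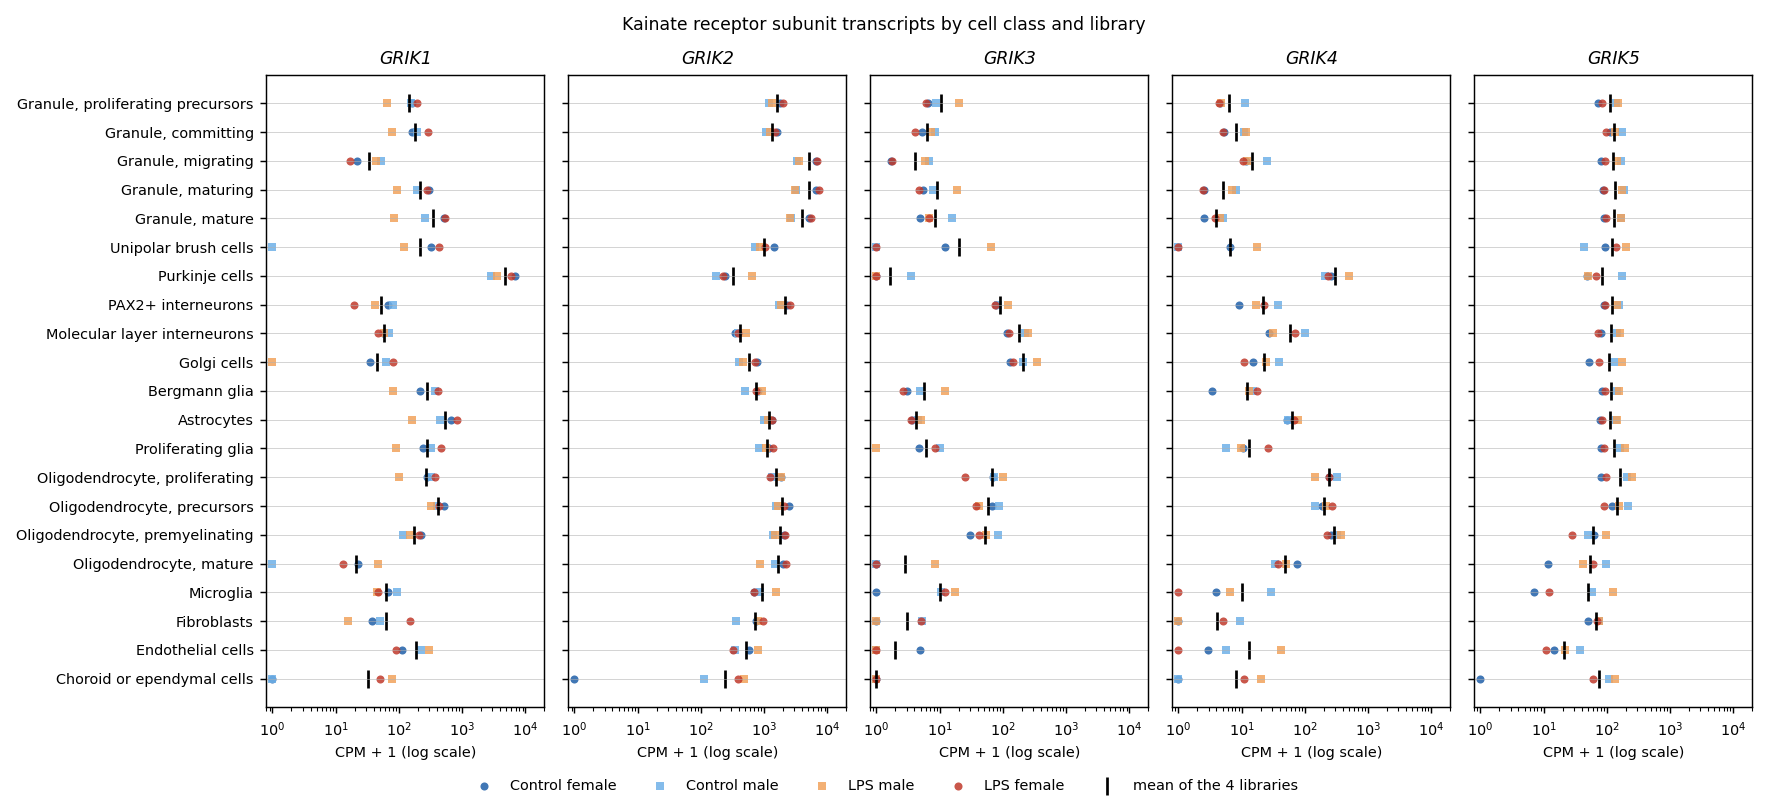
Levels of the 5 kainate subunit transcripts (x axis, CPM + 1 on a log scale) in 21 classes (y axis), drawn as for the AMPA subunits. GRIK1 and GRIK4 have their highest means in Purkinje cells (4786 and 297 CPM), GRIK2 in maturing granule cells (5087 CPM) and GRIK3 in Golgi cells (207 CPM). GRIK5 has its highest mean in proliferating cells of the oligodendrocyte lineage (158 CPM, on 37 nuclei) and stays between 83.9 and 135 CPM in the means of granule stages and other neurons.

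Along the granule lineage, which held 22443 nuclei, the members did not move together. GRIK2 had 1583, 1053, 1255 and 1494 CPM in committing granule cells and 2.80 to 4.54 times as much in migrating ones. The committing level was below free RNA in each library. With free RNA subtracted, GRIK2 had 1395, 879.9, 602 and 1486 CPM in committing and 7081, 3431, 3526 and 7206 CPM in migrating cells. GRIK1 took the other direction at this step. It had 162, 192, 75.7 and 292 CPM in committing cells and 20.7, 51.2, 42.8 and 16.0 CPM in migrating cells, where it was below free RNA in each library. In mature granule cells GRIK1 was back at 516, 261, 81.2 and 529 CPM, or 1.90 to 33.2 times the migrating level, with LPS male the lowest in both the level and the fold. With free RNA subtracted, the migrating cells had 7.48, 7.08, 19.9 and 9.01 CPM and the folds were 72.6, 34.8, 3.55 and 61.4, so that LPS male was still the lowest. Within the mature stage, the cluster led by NELL1 had 611, 325, 146 and 633 CPM of GRIK1 and the cluster led by RAB37 had 227, 150.3, 49.9 and 310.5 CPM. The RAB37 cluster held 302, 388, 1354 and 252 nuclei, so most of it came from LPS male.

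GRIA2 and GRIA4 were both highest in migrating granule cells. GRIA2 had 851, 894, 1216 and 941 CPM there, 1.44 to 1.83 times the committing level, although in Control male the maturing stage was slightly higher still at 937 CPM. GRIA4 had 3595, 1969, 2380 and 3351 CPM in migrating cells and 1522, 955, 1397 and 1548 CPM in mature cells, a ratio of 1.70 to 2.36. GRIK4 was low in all stages, and its highest stage was also the migrating one, with 10.8, 23.8, 11.2 and 9.33 CPM. GRIK5 kept near one level from proliferating precursors (110.1 ± 39.1 CPM) to mature cells (131 ± 42.4 CPM; SD, n = 4 each). The share of GRIA2 among AMPA UMIs was 20.4% ± 4.08 in committing and 29.0% ± 6.85 in mature granule cells (SD, n = 4 each), and it was higher in the mature stage in 4 of 4 libraries. The mean level of GRIA2 was not higher there, at 570.4 CPM against 610.2 CPM in committing cells. That of GRIA4 was 1356 CPM in mature and 2390 CPM in committing cells.

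**Figure D4:**
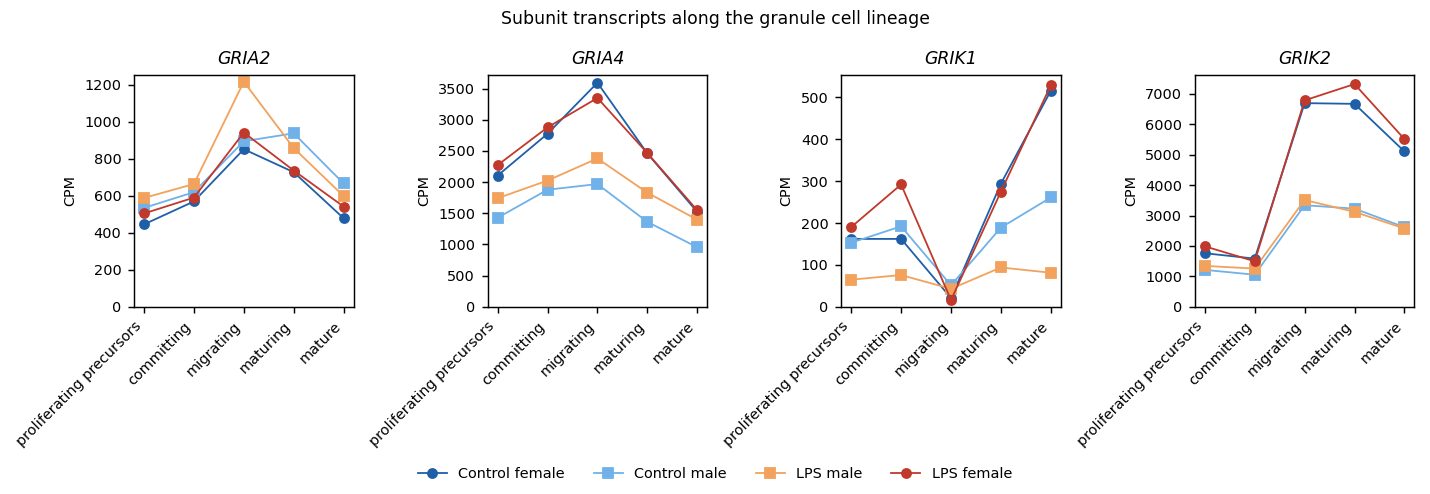
Levels (y axis, CPM) of GRIA2, GRIA4, GRIK1 and GRIK2 over the 5 stages of the granule lineage (x axis), with 1 line per library. GRIK2 is higher from the migrating stage on and GRIK1 is lowest in migrating cells in all 4 libraries; the female libraries lie above the male ones for GRIA4 and GRIK2, and LPS male has the flattest line for GRIK1.

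In the oligodendrocyte lineage, 469 nuclei in all, the step from precursors to premyelinating cells separated the subunits. GRIA1 had 318, 271, 237 and 254 CPM in precursors and 32.7, 24.5, 17.9 and 54.7 CPM in premyelinating cells, on 3 to 12 UMIs per library in the latter. Precursors thus had 4.64 to 13.3 times the level of premyelinating cells. Precursors also had more of GRIA3 (1.91 to 2.93 times), GRIK1 (2.08 to 3.47 times) and GRIK5 (1.63 to 4.34 times) in 4 of 4 libraries. GRIA4 differed less, with a ratio of 1.11 to 1.48. GRIA2 went the other way, since premyelinating cells had 1.02 to 1.67 times the level of precursors. The GRIA2 share of AMPA UMIs was 26.0% ± 6.04 in precursors and 40.0% ± 6.40 in premyelinating cells (SD, n = 4 each), and higher in the latter within each library. In mature oligodendrocytes, of which LPS male held 58 and the other libraries 5 to 11, GRIA2 had 150.5, 738, 323 and 253 CPM on 14 to 86 UMIs.

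For each member the genes with the most similar profile over the 21 classes were found by Pearson's r of log2(mean CPM + 1) among 11553 genes. These values describe classes that share libraries and depth and carry no test. GRIA3 was closest to C2orf80 (r = 0.88) and GAD1 (r = 0.86), the enzyme that makes GABA. GRIA2 was closest to PTPRO (r = 0.88), GRIK2 to SLC12A8 (r = 0.92) and CHD7 (r = 0.90), and GRIA1 to KCNIP1 (r = 0.86). GRIA4 was closest to PTCH1 (r = 0.81), the receptor for hedgehog ligands. GRIK3 was closest to MEGF11 (r = 0.86) and GRIK5 to RPS6KA6 (r = 0.87). For GRIK4 the closest gene with a symbol was ELFN2 (r = 0.80). No member was among the 3 closest genes of another member.

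The partners of these receptors are described in the same way, although some of them took part in the clustering, such as CACNG3 and SHISA9, which were among the leading genes of Golgi and unipolar brush cells. Of 13 auxiliary AMPA subunits 11 were found by symbol. CACNG2 (stargazin, which brings AMPA receptors to the membrane) had its highest mean in Purkinje cells, with 736, 865, 603 and 842 CPM, above molecular layer interneurons (mean 658 CPM) in 3 of 4 libraries. CACNG3 (522, 434, 459 and 536 CPM) and CNIH3 (463, 463, 301 and 389 CPM) were highest in Golgi cells and above the next class in 4 of 4 libraries.

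SHISA9 was highest in unipolar brush cells, with 1755, 2010, 2205 and 2508 CPM, the class in which GRIA2 also led. In Bergmann glia, CACNG4 (122 ± 48.2 CPM), CACNG8 (180.0 ± 53.8 CPM) and FRRS1L (604 ± 123 CPM; SD, n = 4 each) had their highest means, and of these FRRS1L was above the next class in 4 of 4 libraries. The kainate auxiliary subunits divided likewise. NETO1 was highest in Golgi cells at 571, 465, 396 and 656 CPM. NETO2 was highest in Bergmann glia at 886, 664, 625 and 1026 CPM. GRIP1, a scaffold that binds GRIA2 and GRIA3, led in Golgi cells (1145 ± 349 CPM; SD, n = 4).

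ADARB1, the enzyme that edits the GRIA2 transcript, was highest in migrating granule cells at 286, 362, 370.1 and 275 CPM, above the maturing stage in 4 of 4 libraries.

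The comparison of LPS with Control asked whether inflammation in the amniotic cavity was followed by another level of these transcripts. UMIs were summed per class and library and compared in edgeR by its quasi-likelihood test in 19 classes with at least 10 nuclei in every library, of which 17 are disjoint and 2 are whole lineages. A gene was called if its adjusted p was under 0.1 and its log2 fold change larger than 0.25 in either direction. Of 156 tests of a member in a class, 0 were called, where the share called among all genes in all tested classes was 0%. At an unadjusted p under 0.05 there were 2 of these tests, and DESeq2 also called 0 members, with the same 2 at an unadjusted p under 0.05. Over the 138 tests in disjoint classes the median log2 fold change of the members was 0.07, beside medians of all genes of -0.022 to 0.026 by class. Since the fetuses are the replicates, and there are 2 per group, an absent call does not show that levels were alike. In sums of nuclei, fewer cells of a subtype and less RNA per cell cannot be told apart either.

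The members that came nearest were GRIK1 in PAX2+ interneurons and GRIA3 in endothelial cells. GRIK1 in PAX2+ interneurons had 66.7, 79.2, 41.1 and 18.8 CPM, so both LPS libraries were below both Control libraries. Its log2 fold change was -1.32 ± 0.46 (SE), with an unadjusted p of 0.0270 and an adjusted p of 1.00 by edgeR. All 4 values lay below those of free RNA. GRIA3 in endothelial cells had 33, 22, 2 and 0 UMIs, with a fitted log2 fold change of -3.70 ± 1.12 (SE) and an adjusted p of 1.00 by edgeR. This too was below free RNA in each library, and as LPS female was at 0 the fitted size depends on the prior count.

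In the granule lineage the log2 fold changes of LPS over Control were each smaller than their SE. The farthest from 0 was GRIK4 at -0.52 ± 0.62 (SE). Others were 0.00 ± 0.28 for GRIA2, 0.07 ± 0.46 for GRIA4, 0.00 ± 0.60 for GRIK2 and -0.35 ± 0.65 for GRIK1, with an adjusted p of 1.00 by edgeR for all 9 members. GRIA4 in Bergmann glia had 0.05 ± 0.74 and GRIK1 in Purkinje cells -0.15 ± 0.95 (log2 ± SE, adjusted p of 1.00 by edgeR for both). GRIA1 in Bergmann glia had both LPS libraries above both Control libraries, with a log2 fold change of 0.15 ± 0.41 (SE, adjusted p of 1.00 by edgeR). GRIA2 in migrating granule cells was also higher in both LPS libraries, at 0.31 ± 0.28 (SE, adjusted p of 1.00 by edgeR).

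Over the 17 disjoint classes, 145 pairs of a member and a class had at least 10 UMIs. Both LPS libraries lay above both Control libraries in 7 pairs (4.83%), where this held for 10.6% of all genes and classes. The pairs were GRIA2 in migrating granule cells and fibroblasts, GRIK2 in molecular layer interneurons and fibroblasts, GRIA1 in Bergmann glia, and GRIK4 in astrocytes and oligodendrocyte precursors. Both LPS libraries lay below both Control libraries in 8 pairs (5.52%), against 10.0% of all genes and classes. These were GRIA1 in Purkinje cells, Golgi cells and oligodendrocyte precursors, GRIK1 in PAX2+ interneurons and microglia, GRIK3 in oligodendrocyte precursors, and GRIA3 and GRIA4 in endothelial cells. Neither share was above its background.

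GRIA1 in Purkinje cells had 791, 747, 603 and 698 CPM, with a log2 fold change of -0.29 ± 0.60 (SE, adjusted p of 1.00 by edgeR), on 15 to 54 nuclei per library. In the oligodendrocyte lineage taken whole, GRIA1, GRIA3, GRIK3 and GRIK4 were lower in both LPS libraries, where 10.3% of all genes were. In this sum the stages were not in equal number, with 58 of 158 nuclei mature in LPS male and 5 to 11 elsewhere. The sum also held an unnamed cluster of 38 nuclei (9, 4, 19 and 6 by library). Its leading genes included granule genes such as TRPC7, and 34.2% of it were called doublets. Within precursors GRIA1 and GRIK3 were lower in both LPS libraries and GRIK4 higher, and within premyelinating cells the groups overlapped for all 9 members.

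The GRIA2 share of AMPA UMIs was compared by a two-sided exact permutation test over the 4 libraries, which cannot go below p = 0.333 with 2 libraries per group. The mean was 27.1% in Control and 25.4% in LPS in the granule lineage (exact permutation p = 1.00). It was 44.7% and 46.3% in Purkinje cells (exact permutation p = 1.00), and LPS minus Control was 0.02 percentage points in Bergmann glia (exact permutation p = 1.00). In no class did the groups stand apart in this share.

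**Figure D5:**
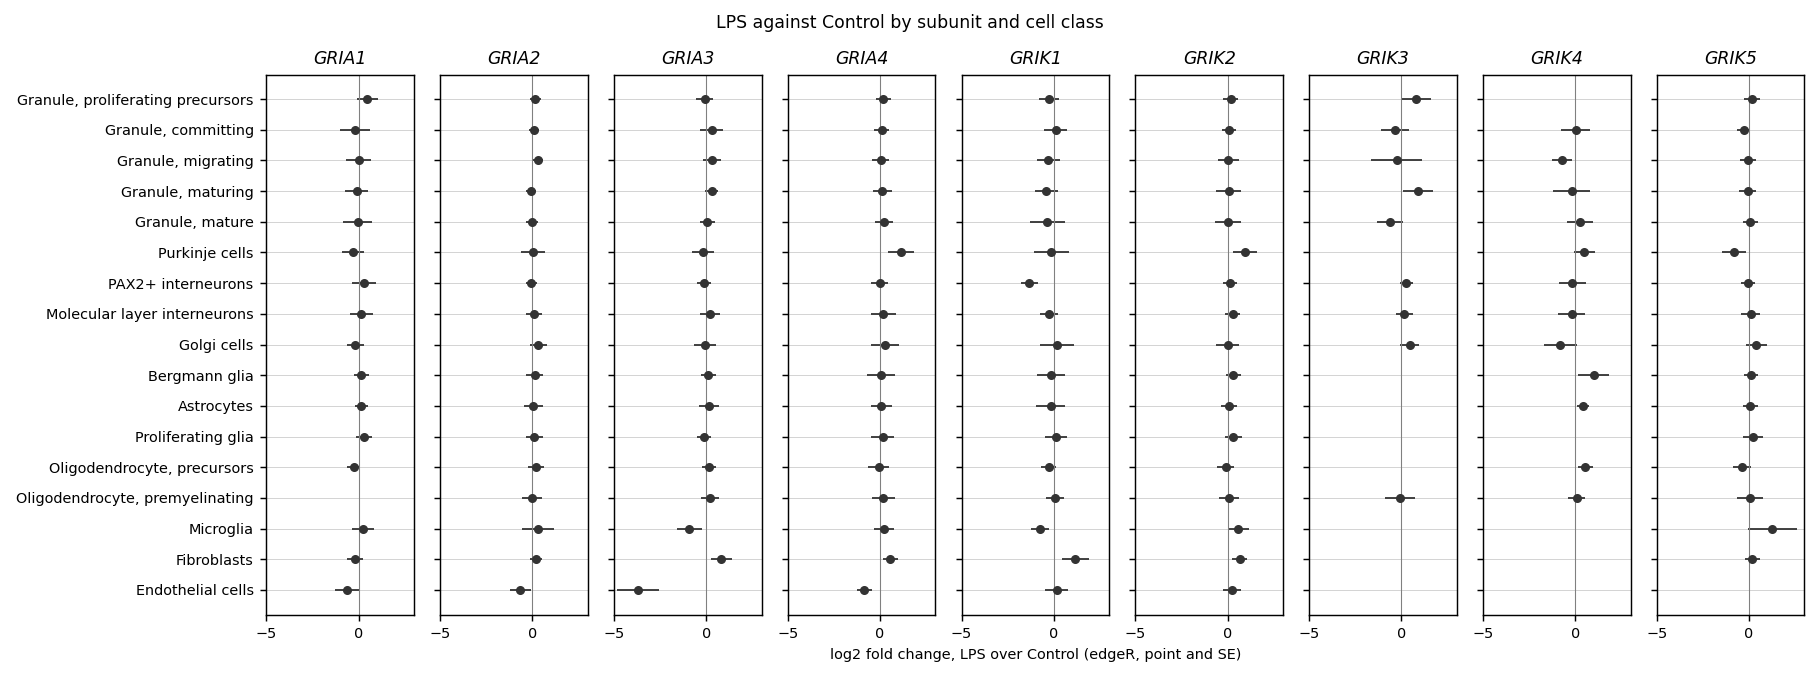
Log2 fold change of LPS over Control (x axis) for each member in each disjoint class in which it passed the filter on low counts (y axis), with the point at the edgeR estimate and a bar of 1 SE to each side. None of the values was called, and the farthest from 0 is GRIA3 in endothelial cells at -3.70.

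Of the partner genes of the lists, 0 were called by edgeR in either direction in any disjoint class. The tests numbered 108 for auxiliary AMPA subunits, 30 for auxiliary kainate subunits, 111 for anchoring and trafficking, 28 for synaptic clustering and 50 for RNA editing. The median log2 fold changes were 0.04, 0.22, -0.06, 0.46 and 0.08, respectively. At an unadjusted p under 0.05 there were 0, 0, 0, 2 and 1. The 2 were NPTXR, the neuronal pentraxin receptor that clusters AMPA receptors, in PAX2+ interneurons and in fibroblasts, and the other was ADARB2 in endothelial cells.

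More pairs stood apart by the sex label than by group. Both female libraries lay above both male ones in 42 of the 145 pairs (29.0%), against 24.5% of all genes and classes, and below them in 63 (43.4%), against 32.3%. These counts are of levels before subtraction of free RNA and were not made after it. Among the pairs below were GRIA1 in the granule stages and in PAX2+ interneurons, where the sexes overlapped once free RNA was subtracted. GRIA4 was higher in both females in 14 of 17 classes and GRIK2 in 11 of 17. GRIA2 was lower in both females in 14 of 17 classes, GRIK5 in 15 of 17 and GRIK3 in 11 of 12. GRIA2 was also lower in the free RNA of both females, at 354, 652, 690.1 and 196 CPM. With free RNA subtracted, the sexes overlapped for GRIA2 in proliferating and committing granule cells, Golgi cells, Bergmann glia and proliferating glia. In the other classes of this count GRIA2 stayed lower in both females. In the granule lineage GRIK2 had 5334 and 5457 CPM in the females (Control and LPS) and 2619 and 2653 CPM in the males, while GRIK5 had 88.0 and 91.7 CPM in the females and 173 and 164 CPM in the males. The female libraries also had the higher number of UMIs per nucleus and the higher mitochondrial share. The sex of the fetus, this depth and this share cannot be told apart with 1 library per fetus.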

How the data were processed

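The authors isolated nuclei of the cerebellum of 4 fetuses, mapped the reads to Mmul_8.0.1 with introns included and deposited UMI counts per gene and barcode, unfiltered and without normalization. The study's methods and the file headers name different versions of Cell Ranger (the headers 4), and its removal of ambient RNA is not in the deposited counts.

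Nuclei (500 or more genes, no more than 5% mitochondrial UMIs) were integrated by anchors in Seurat 5.3.0 (R 4.3.3; 2000 features without the 9 genes, 30 dimensions, resolution 0.5), giving 23 clusters, of which 3 stayed unnamed. A cluster was named only if at least 3 markers were raised, and stayed unnamed where called doublets exceeded 50%, leading genes went against the name or UMIs were few. Granule and oligodendrocyte nuclei were clustered again into stages. Free RNA was profiled in barcodes ranked after 3 times the nuclei, in equal number. Doublets were called by Scrublet in scanpy 1.11.5, with the median threshold of the female libraries in the 2 male ones, where its automatic threshold called 0%, and were kept except in an alternative. The 9 genes were described in every class, and partner genes by fixed lists; members and lists were chosen with earlier results of these data known.

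UMIs summed per class and library were tested with edgeR 4.0.16 (filterByExpr, TMM, quasi-likelihood, Benjamini-Hochberg over all genes of a class), and with DESeq2 1.42.0 as the other tool. The SE given with an edgeR fold change is approximate. It was computed as the absolute log2 fold change over the square root of the F statistic of the test. The scripts were tested on simulated data. The libraries held 34282015 to 61665690 UMIs in all. Each library is 1 fetus, so p-values measure the spread between fetuses, with all else that differed between libraries. Sex was used as a block in an alternative, as the labels give no replicate numbers. Sequences and gene coordinates were not used here. The gene closest in profile to GRIK1 is not reported here.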

Additional observations from a re-analysis of the deposited data

Results flagged for a closer look

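Within-sex differences of LPS minus Control, as log2(CPM + 1), were compared in the 17 disjoint classes with at least 10 nuclei in every library, for members with at least 3 UMIs in every library. Smaller classes, such as unipolar brush cells and mature oligodendrocytes, were left out. A result is listed where the female pair and the male pair each differed by at least 0.5, in opposite directions. With 1 library in each cell of the design these differences were not tested. The share of all genes that meet this rule was not counted, so the list does not set the members apart from other genes. Of the listed results, GRIK2 in endothelial cells and GRIA1 in microglia and in molecular layer interneurons were below free RNA in each library. Here d is the female minus the male difference.

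GRIK1 was listed in 3 classes, in each with LPS higher in the females and lower in the males. The differences were 0.84 and -1.33 in committing granule cells (d = 2.17), 0.97 and -2.23 in Bergmann glia (d = 3.20) and 0.92 and -1.87 in proliferating glia (d = 2.79).

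GRIK4 was listed in PAX2+ interneurons (1.33 in females, -1.12 in males, d = 2.45) and in molecular layer interneurons (1.40 and -1.67, d = 3.07). GRIA1 was listed in molecular layer interneurons (0.94 and -1.11, d = 2.05) and in microglia (1.12 and -0.58, d = 1.70). GRIA3 was listed in mature granule cells (0.80 and -0.61, d = 1.41). In 2 of the listed results the direction was the other way, which were GRIK2 in endothelial cells (-0.80 and 1.18, d = -1.98) and GRIK5 in premyelinating oligodendrocytes (-1.16 and 0.95, d = -2.11).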

How the results depend on the processing

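The count of members called, 0, was the same under DESeq2, other size factors, no filter on low counts, sex as a block, free RNA subtracted, other sets of nuclei, doublets removed, resolution 0.8, each library left out, and the granule lineage without the RAB37 cluster (the last chosen after seeing the data). Over all genes 0 were called, against 9 with DESeq2, 117 with no filter on low counts and 30 with sex as the replicate block, and 113 to 299 with 1 library left out. The labels give no replicate numbers, so the block pairs the fetuses by sex.

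None of the 27 fold changes examined was called under any alternative that kept the 4 libraries. GRIA1 in the granule lineage went from -0.05 to 0.01 without the RAB37 cluster, and GRIA4 in oligodendrocyte precursors from -0.06 to 0.06 with the replicate block. With 1 library left out in turn, 1 group held only 1 sex. The part of the sex label in the ranges that follow was not tested. Of the 27 ranges 25 crossed 0, and GRIA4 in endothelial cells (-1.17 to -0.37) and GRIK2 in fibroblasts (0.20 to 1.32) kept their sign. In the granule lineage the log2 fold changes then ran from -0.87 to 0.86 for GRIA1, -0.06 to 0.08 for GRIA2, -0.15 to 0.56 for GRIA3, -0.30 to 0.60 for GRIA4, -1.49 to 0.28 for GRIK1, -0.62 to 0.72 for GRIK2, -0.73 to 0.86 for GRIK3, -1.04 to 0.32 for GRIK4 and -0.49 to 0.49 for GRIK5. GRIA4 ran from -0.42 to 0.81 in astrocytes, -0.58 to 1.04 in Bergmann glia, -0.50 to 0.83 in Golgi cells, -0.22 to 0.45 in committing granule cells, -0.10 to 0.56 in proliferating granule precursors, -0.64 to 0.68 in molecular layer interneurons, -0.76 to 0.63 in the oligodendrocyte lineage, -0.58 to 0.77 in oligodendrocyte precursors, -0.38 to 1.07 in premyelinating oligodendrocytes, -0.48 to 0.41 in PAX2+ interneurons and -0.37 to 0.89 in proliferating glia. GRIK1 ran from -0.71 to 0.85 in Purkinje cells, and GRIK2 from -0.71 to 0.76 in mature, -0.79 to 0.82 in maturing and -0.58 to 0.72 in migrating granule cells and -0.15 to 1.04 in microglia.

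The level of GRIA1 in Bergmann glia was 2505 CPM with free RNA subtracted and 2444 CPM with doublets removed, against 2176 CPM. Other leading levels moved by less than 1 SD. The estimated share of free RNA in granule lineage nuclei was 19.5% in LPS male and 6.84 to 12.7% elsewhere, which limits low levels in that library.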
